A study of Mus musculus with 60 samples.

Results

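TRAV4-3 and TRAV4-4-DV10 are 2 of the variable (V) gene segments from which the alpha chain of the mouse T cell receptor (TCR) is built, and older names place them in the V alpha 11 family. They were chosen by their segment names in the tables of TCR alpha (TCRA) sequences of donor CD4 and CD8 T cells, and with their usage in these libraries known, including a difference in CD8 T cells between 2 donor genotypes. The CD4 table filed 640 of its 62533 clonotypes under TRAV4-3 and 1186 under TRAV4-4-DV10, and the CD8 table filed 430 and 531 of 59365. Each table named 109 V segments in all. By mean usage TRAV4-3 was number 31 of these in CD4 T cells and 40 in CD8 T cells, and TRAV4-4-DV10 was number 25 and 30.

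The T cells came from C57BL/6 donors of 3 genotypes. WT donors were wild type, STAT3ko donors lacked the transcription factor STAT3 in T cells through Cre recombinase driven by the CD4 promoter, and STAT3koPD-1ko donors also lacked the inhibitory receptor PD-1 through a germline deletion. Together with bone marrow of WT C57BL/6 mice that had been depleted of T cells, these cells were given to lethally irradiated WT BALB/c mice, an allogeneic hematopoietic cell transplantation (HCT), in which donor T cells can cause graft-versus-host disease. Each table held 15 libraries: 3 from spleen labelled before HCT, 1 for each genotype, and 12 from day 6, with 2 each from liver and gut for each genotype, each of which pooled lymphocytes of 3 recipients. The day 6 cells had been sorted for the donor molecule H-2Kb, TCR beta and CD4 or CD8. The files hold no genes other than TCR segments, and no marker of another cell type could be checked.

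A V alpha segment encodes the 2 loops that touch mainly the MHC molecule and the first residues of the third loop, the complementarity determining region 3 (CDR3), which is completed by a joining (J) segment and by bases inserted between them. In the thymus an alpha chain gene can be rearranged again and again. The first joins use V segments near the TRAJ array and TRAJ segments at its 5' end, and later joins replace them with V segments farther upstream and TRAJ segments farther downstream. Receptors with V alpha 11 are well known from CD4 T cells of mice immunised with cytochrome c, and the letters DV in a name mark a segment that can also serve in TCR delta chains.

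Both genes lie on the plus strand of chromosome 14 (mouse GRCm38, GENCODE vM21) and have 2 exons. Trav4-3 (ENSMUSG00000093966) is at chr14:53598828-53599410 and Trav4-4-dv10 (ENSMUSG00000096096) at chr14:53683647-53684177, which is 555.6 and 470.8 kb upstream of the first TRAJ gene. The second exon encodes most of the variable domain. Over its 279 bases the pair differed at 30 positions, an identity of 89.2%, but the last 81 bases were the same. The locus is duplicated, and TRAV4-3 was closer to its copies TRAV4D-3 and TRAV4N-3 (97.5% identity) than to TRAV4-4-DV10. TRAV4-4-DV10 had its own close copies in TRAV4D-4 and TRAV4N-4 (97.1%). The last 60 bases of the transcripts are shown because they hold the germline start of the CDR3, from the codon of the conserved cysteine on, in capitals.
TRAV4-3, TRAV4-4-DV10, TRAV4D-4 and TRAV4N-4: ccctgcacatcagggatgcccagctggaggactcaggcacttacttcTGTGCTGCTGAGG
TRAV4D-3 and TRAV4N-3: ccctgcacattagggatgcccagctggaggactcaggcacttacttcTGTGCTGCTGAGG
TRAV4-2: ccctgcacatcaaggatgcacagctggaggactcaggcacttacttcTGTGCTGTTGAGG
The 13 capital bases of the first 2 lines encode the residues CAAE and were the same in 6 of the 128 TRAV transcripts of the annotation, all of them TRAV4 genes, whereas those of TRAV4-2 differ. The CDR3 therefore could not tell the 2 segments from each other or from their D and N copies, and the names rest on bases of the V segment farther upstream.

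What a V name means in these tables sets the limits of every value below. Each CDR3 amino acid sequence stood in a single row of a table, with 1 V name and 1 J name, so the libraries had been joined by the CDR3 alone and the frequencies of receptors with the same CDR3 but different V segments were summed under 1 name. Of the 25521 CDR3 found in both tables, 25484 had the same J name but only 7626 the same V name. For TRAV4-3, 212 of the 640 CDR3 of the CD4 table were also in the CD8 table, 37 of them under the same name, 85 under another TRAV4 name and 90 under a name outside the family. For TRAV4-4-DV10, 356 of 1186 were shared, with 106 under the same name, 112 under another TRAV4 name and 138 outside the family. Within a table the CDR3 filed under a name are the same in all 15 libraries, so libraries of a table can be compared in the share of these CDR3. Whether receptors with other V segments make up the same part of that share in each library is not known. CD4 and CD8 T cells are compared over different sets of CDR3. The germline start itself carried over: 1822 CD4 and 891 CD8 clonotypes began with its first 12 bases (the codons of CAAE), and all 1822 and 891 of them were filed under a TRAV4 name. Of the clonotypes of the 2 segments, between 45.4% and 53.5% by segment and table kept these 12 bases.

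The values are fractions of the reads of a library, and no counts were given, so the depth is unknown. Clonotypes had to be found in at least 2 of 18 joined libraries to be listed, and the listed clonotypes held 79.5% to 83.5% of the reads in the gut libraries numbered 2 and 90.8% to 99.1% in all others. Usage is the share of the listed frequency of a library that is filed under a segment. Between 80 and 312 TRAV4-3 and between 143 and 551 TRAV4-4-DV10 clonotypes were listed in a CD4 library from gut, and the range in CD4 libraries from liver was 147 to 247 and 259 to 439. Most were seldom seen: 62.0% to 67.9% of the clonotypes of a segment and table were listed in 1 to 3 of the 15 libraries, while 12 and 10 CD4 clonotypes and 4 and 4 CD8 clonotypes (TRAV4-3 and TRAV4-4-DV10) were listed in all 15. As a share this was 0.753% to 1.88% of the clonotypes, against 1.24% and 1.04% of all CD4 and CD8 clonotypes. The libraries labelled before HCT shared far more with some day 6 libraries than with others. Overlap, the sum of the smaller of 2 shares over the clonotypes of a segment, was 47.1% ± 2.90 (SD, n = 3) between the library before HCT and liver replicate 1 of the same genotype for CD4 TRAV4-3, but 18.8% ± 4.29 (n = 6) between different genotypes. With liver replicate 2 it was 20.7% ± 4.98 (n = 3) and 21.4% ± 4.86 (n = 6). In the other 3 cases the means for liver replicate 1 were 43.0% to 49.6% within and 7.98% to 13.5% between genotypes. Gut replicate 1 also shared more with the library before HCT of its own genotype, with means of 30.5% against 23.9% between genotypes for CD4 TRAV4-3, 24.6% against 16.8% for CD4 TRAV4-4-DV10, 24.8% against 11.001% for CD8 TRAV4-3 and 26.7% against 16.7% for CD8 TRAV4-4-DV10. Why these libraries share so much was not tested, and comparisons of day 6 with before HCT are given with and without the day 6 libraries numbered 1.

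Both segments took more of the CD4 than of the CD8 repertoire as filed. In CD4 T cells TRAV4-3 usage before HCT was 1.23% in the WT, 1.03% in the STAT3ko and 1.35% in the STAT3koPD-1ko library. In liver it ran from 0.971% to 1.23% with a median of 1.09%, and in gut from 0.925% to 1.16% with a median of 1.03%. The CD8 libraries before HCT were at 0.503%, 0.798% and 0.363%, with 0.327% to 0.746% (median 0.489%) in liver and 0.378% to 0.687% (median 0.503%) in gut. The CD4 libraries were all above the CD8 libraries, although the highest CD8 value came close to the lowest CD4 value.

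For TRAV4-4-DV10 the CD4 values of the WT, STAT3ko and STAT3koPD-1ko donors were 1.502%, 2.01% and 2.22% before HCT. They ran from 1.26% to 1.96% (median 1.43%) in liver and from 1.26% to 1.89% (median 1.64%) in gut. In CD8 T cells the 3 libraries before HCT were at 0.588%, 0.856% and 1.03%, liver at 0.537% to 0.848% (median 0.672%) and gut at 0.705% to 0.964% (median 0.767%). The ranges again did not overlap. Over the 15 libraries of a kind the mean was 1.09% ± 0.119 (SD) in CD4 against 0.527% ± 0.138 in CD8 for TRAV4-3 and 1.63% ± 0.309 against 0.754% ± 0.136 for TRAV4-4-DV10. The ratio of CD4 to CD8 usage was 2.23 ± 0.744 and 2.20 ± 0.459 (SD, n = 15). It went from 1.29 to 3.73 for TRAV4-3 and from 1.49 to 2.96 for TRAV4-4-DV10. Both extremes of the former were libraries before HCT.

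The difference was not tested, since the tables were joined and named apart and the segments had been chosen with it in view. Of the 53 V segments that reached 0.5% on average in either table, 24.5% had every CD4 library above every CD8 library, so this pattern was not rare. Over all TRAV4 names, which include the close copies and less similar genes such as TRAV4-2 (83.2% identity to TRAV4-3), the order of CD4 and CD8 was the same. The 9 TRAV4 names together held 5.84% ± 0.317 (SD, n = 15, range 5.12% to 6.23%) of the CD4 and 2.68% ± 0.334 (n = 15, 2.22% to 3.32%) of the CD8 repertoire. CDR3 with the germline start of 12 bases held 2.68% ± 0.216 (n = 15, 2.19% to 2.99%) and 0.897% ± 0.181 (n = 15, 0.652% to 1.23%). All of these were filed under a TRAV4 name, so they are a part of the same frequency and no check on the names.

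**Figure D1:**
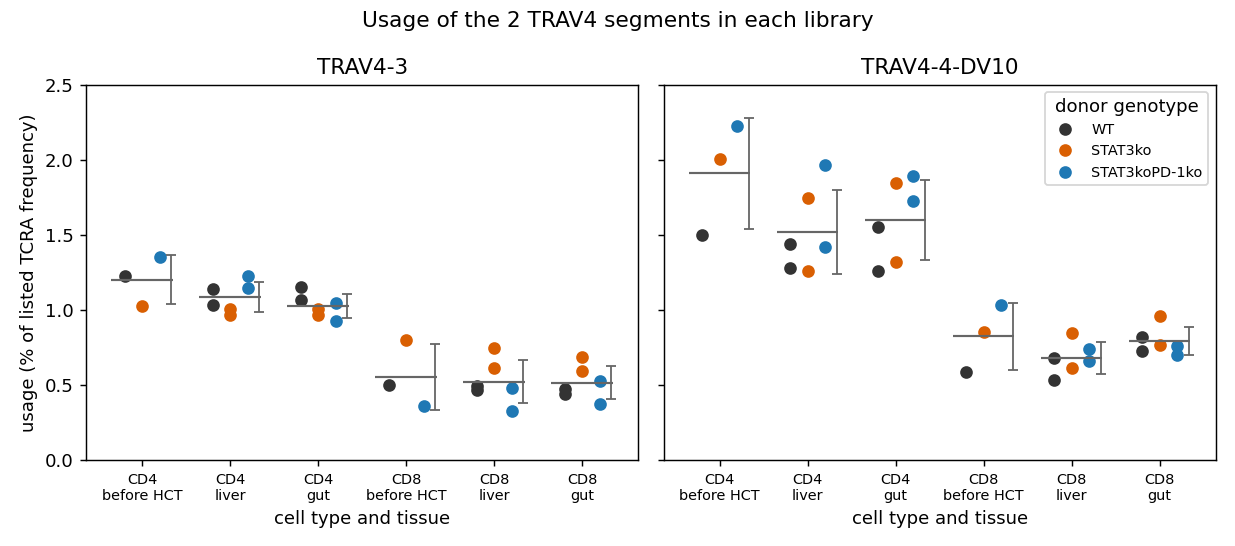
Usage of TRAV4-3 (left) and TRAV4-4-DV10 (right), in percent of the listed TCRA frequency, by cell type and tissue. Each point is a library, coloured by donor genotype, the grey line is the mean and the bar at its side 1 SD (n = 3 before HCT, n = 6 in liver and gut). All CD4 points lie above all CD8 points of the same segment, and STAT3ko points are the highest of CD8 TRAV4-3 in each tissue.

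Liver and gut are 2 main targets of graft-versus-host disease, and the first question was whether the donor cells in them used the segments differently. Neither segment passed the test between gut and liver in CD4 T cells, where the log2 difference (gut minus liver, on log2 of percent + 0.1) was -0.07 with an SE of 0.0998 for TRAV4-3 and 0.07 with an SE of 0.125 for TRAV4-4-DV10 (limma, adjusted p = 0.752 for both). In that comparison 14.9% of the 47 V segments passed the test. In CD8 T cells, where 12.2% of 41 segments passed, TRAV4-3 was at 0.518% ± 0.112 (SD, n = 6) in gut and 0.523% ± 0.143 in liver, a log2 difference of 0.003 with an SE of 0.102 (limma, adjusted p = 1.00). TRAV4-4-DV10 was at 0.792% ± 0.0933 (n = 6) in gut and 0.680% ± 0.107 in liver, a log2 difference of 0.20 with an SE of 0.0986, which did not pass the test (limma, adjusted p = 0.145). As percent of all reads in place of the listed frequency that difference was 0.05 with an SE of 0.124 (limma, adjusted p = 0.792), and over the CDR3 with the same V name in both tables it was 0.48 with an SE of 0.238 (limma, adjusted p = 0.414). The 6 libraries of each tissue overlapped for both segments. The interval of 2 SE around each difference allowed changes from -0.27 to 0.13 and -0.18 to 0.32 in CD4 T cells and from -0.20 to 0.21 and 0.0008 to 0.40 in CD8 T cells.

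Usage on day 6 was compared with that before HCT in the same way, with genotype in the fit. In CD4 T cells the log2 difference (day 6 minus before HCT) was -0.17 with an SE of 0.104 for TRAV4-3 and -0.28 with an SE of 0.134 for TRAV4-4-DV10 (limma, adjusted p = 0.372 and 0.317). No CD4 segment passed this test (0.0% of 47), and 5 had an unadjusted p under 0.05. In CD8 T cells, where 2.44% of 41 segments passed, the differences were -0.05 with an SE of 0.122 and -0.13 with an SE of 0.138 (limma, adjusted p = 0.934 and 0.698). Without the day 6 libraries numbered 1 the differences were -0.16 and -0.39 in CD4 T cells (limma, adjusted p = 0.494 and 0.285) and -0.09 and -0.15 in CD8 T cells (limma, adjusted p = 0.751 and 0.619). The direction depended on which CDR3 were counted and how. With each clonotype counted once the CD4 differences were 0.0401 for TRAV4-3 and 0.0354 for TRAV4-4-DV10 (limma, adjusted p = 0.914 for both). Over the CDR3 with the same V name in both tables the TRAV4-4-DV10 difference was 0.66 with an SE of 0.358 in CD8 and -0.48 with an SE of 0.271 in CD4 T cells (limma, adjusted p = 0.292 and 0.426). With D and N copies merged it was 0.01 in CD4 T cells (limma, adjusted p = 0.961).

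The study was made to compare donor genotypes. In CD4 T cells on day 6, TRAV4-3 was at 1.101% ± 0.0563 (SD, n = 4) in WT, 0.988% ± 0.0204 in STAT3ko and 1.09% ± 0.132 in STAT3koPD-1ko, and TRAV4-4-DV10 at 1.38% ± 0.141, 1.54% ± 0.294 and 1.75% ± 0.242. STAT3ko differed from WT by a log2 difference of -0.14 (SE 0.122) and 0.14 (SE 0.153), and STAT3koPD-1ko from STAT3ko by 0.12 (SE 0.122) and 0.18 (SE 0.153), none of which passed the test (limma, adjusted p = 0.960 and 0.910). No CD4 segment passed in either comparison (0.0% of 47), with 0 and 2 at an unadjusted p under 0.05. The comparison of STAT3koPD-1ko with WT was added after its values had been seen, and gave a log2 difference of -0.02 (SE 0.122) for TRAV4-3 and 0.31 (SE 0.153) for TRAV4-4-DV10, of which neither passed (limma, adjusted p = 0.996 and 0.664). There, too, no segment passed (0.0% of 47), and 2 had an unadjusted p under 0.05. With D and N copies merged the TRAV4-4-DV10 difference was 0.02, and with each clonotype counted once 0.06 (limma, adjusted p = 0.995 and 0.746).

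In CD8 T cells the genotype values of TRAV4-3 were among those that led to its choice, and they are given with no test. On day 6 the STAT3ko libraries were at 0.746% and 0.615% in liver and 0.687% and 0.598% in gut. The WT libraries were at 0.497% and 0.469% in liver and 0.476% and 0.440% in gut. The STAT3koPD-1ko libraries were at 0.327% and 0.481% in liver and 0.530% and 0.378% in gut. All 4 STAT3ko values were above the other 8, and the order of the means, STAT3ko at 0.662% ± 0.0684 (SD, n = 4), WT at 0.471% ± 0.0233 and STAT3koPD-1ko at 0.429% ± 0.0930, was also that of the single libraries before HCT (0.798%, 0.503% and 0.363%). The libraries before HCT are no separate support for this order. Their usage was known at the choice, and their mean overlap with liver replicate 1 was 43.0% within and 7.98% between genotypes. TRAV4-3 was the only CD8 segment of 41 (2.44%) whose STAT3ko libraries were all above the STAT3koPD-1ko libraries, and likewise 2.44% had all STAT3ko above all WT libraries. Nothing is read from these shares, since such values led to its choice. On the log2 scale STAT3ko minus WT was 0.41 and STAT3koPD-1ko minus STAT3ko was -0.54, with an SE of 0.125 each.

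The STAT3ko level was less apart when each listed CDR3 had equal weight. When each listed clonotype of a library was counted once, TRAV4-3 made up 0.706% ± 0.0457 (SD, n = 4) of the STAT3ko, 0.694% ± 0.0550 of the WT and 0.676% ± 0.0308 of the STAT3koPD-1ko clonotypes. With the largest TRAV4-3 clonotype of every library left out, usage was 0.582% ± 0.0354 in STAT3ko, 0.403% ± 0.0296 in WT and 0.398% ± 0.0890 in STAT3koPD-1ko. TRAV4-4-DV10 in CD8 T cells was at 0.799% ± 0.147, 0.692% ± 0.119 and 0.717% ± 0.0435 in STAT3ko, WT and STAT3koPD-1ko, and the ranges overlapped.

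The pair differed in the TRAJ segments to which they were joined. TRAV4-4-DV10 was joined mainly to the 5' part of the array. Its leading partners were TRAJ49 at 8.74% ± 4.13 (SD, n = 15) of its frequency, TRAJ50 at 7.31% ± 2.35 and TRAJ40 at 6.94% ± 2.65 in CD4 T cells, against 2.52% ± 0.328, 0.970% ± 0.169 and 3.30% ± 0.395 for all other V segments as 1 group. The CD8 partners were TRAJ49 at 13.4% ± 6.66, TRAJ50 at 11.7% ± 4.10 and TRAJ48 at 6.96% ± 4.39, against 3.46% ± 0.497, 1.77% ± 0.144 and 2.34% ± 0.299. The share of TRAJ50 was above that of the other segments in all 15 libraries of both tables. With TRAV4-3 the TRAJ50 share was 3.73% ± 2.81 in CD4 T cells (above the others in 15 of 15 libraries) and 5.65% ± 9.69 in CD8 T cells (11 of 15).

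TRAV4-3 had its leading partners nearer the middle of the array. In CD4 T cells these were TRAJ37 at 8.20% ± 3.42, TRAJ30 at 7.79% ± 5.18 and TRAJ21 at 6.80% ± 3.51, against 5.45% ± 0.650, 2.91% ± 0.376 and 3.30% ± 0.300 for all other V segments. The CD8 partners of TRAV4-3 were TRAJ30 at 10.8% ± 5.42, TRAJ22 at 9.42% ± 8.14 and TRAJ31 at 8.55% ± 9.10, against 5.29% ± 0.536, 9.13% ± 0.784 and 4.26% ± 0.546. The TRAJ22 share of CD8 TRAV4-3 was above the other segments in 6 of 15 libraries and reached 35.7% in 1 of them. Its TRAJ31 share was above them in 7 of 15 libraries, with a range of 1.08% to 29.3%, and its TRAJ30 share in 12 of 15.

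**Figure D2:**
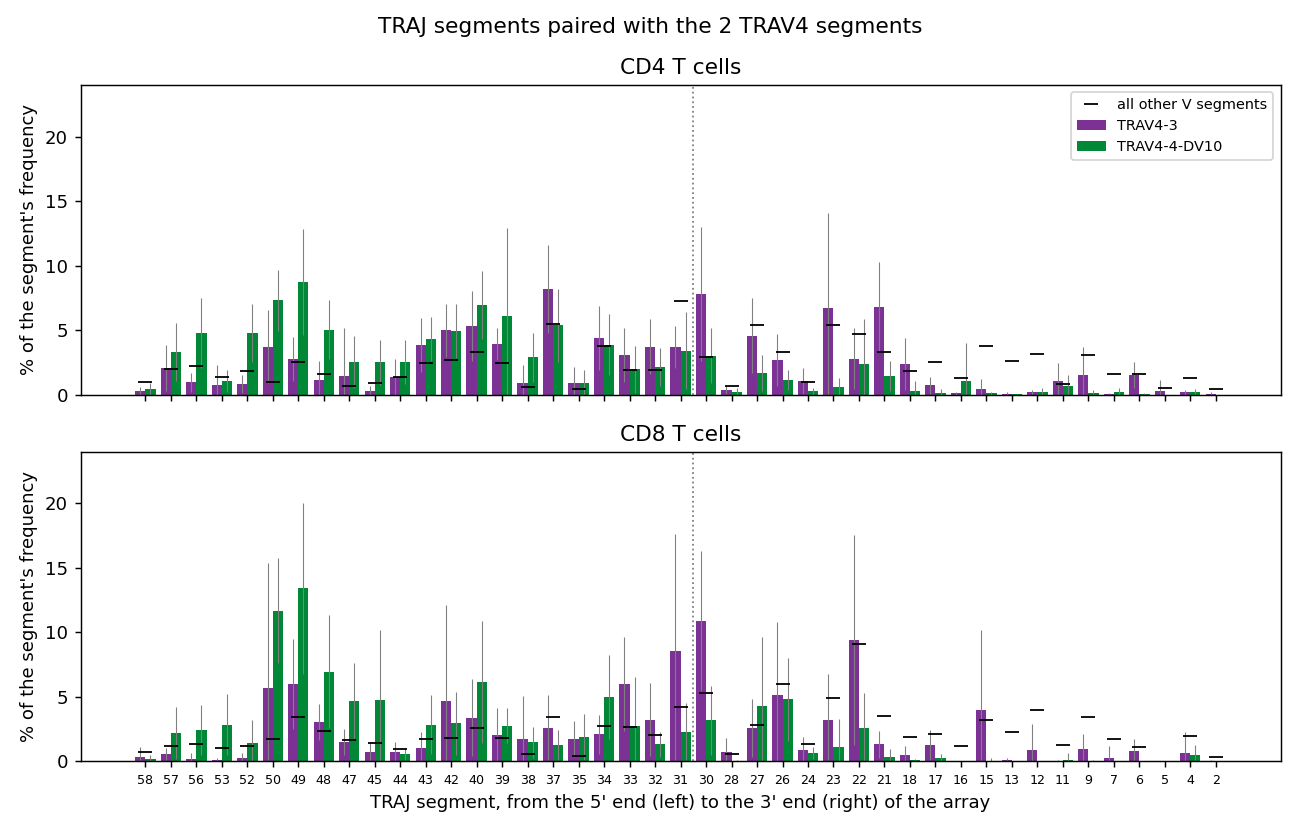
Share of each TRAJ segment in the frequency of TRAV4-3 (purple) and TRAV4-4-DV10 (green), mean and 1 SD over 15 libraries, in CD4 (top) and CD8 T cells (bottom), with TRAJ segments ordered along the array from 5' to 3'. Black dashes mark the mean of all other V segments and the dotted line lies between TRAJ31 and TRAJ30. Green bars stand mostly left of the line, with TRAJ49 at 8.74% in CD4 and 13.4% in CD8 T cells.

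The share of TRAJ61 to TRAJ31, the 5' part of the array, summarised this. On day 6 it was 87.1% ± 3.08 (SD, n = 12) for TRAV4-4-DV10 in CD4 T cells, with a range of 82.6% to 93.6%. It was 60.8% ± 6.74 (45.4% to 67.4%) for TRAV4-3 and 48.9% ± 3.35 (45.4% to 55.4%) for all other V segments. The CD8 shares were, in the same order, 83.2% ± 4.51 (73.8% to 90.2%), 56.2% ± 10.4 (36.7% to 76.6%) and 41.6% ± 2.09 (37.4% to 44.4%). TRAV4-4-DV10 did not overlap with the other segments in any library, whereas the range of TRAV4-3 overlapped with them at its lower end.

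The differences within libraries were larger than their spread. TRAV4-4-DV10 exceeded all other V segments by 38.3 ± 4.03 percentage points in CD4 and 41.6 ± 6.15 in CD8 T cells, and was higher in 12 of 12 libraries (exact two-sided sign permutation test, adjusted p = 0.000977, which rests on the smallest p the 12 libraries can give, 0.000488). TRAV4-3 exceeded them by 11.9 ± 6.59 points in CD4 and 14.6 ± 10.5 in CD8 T cells, in 11 of 12 libraries each (same exact test, adjusted p = 0.00130). Between the segments the difference was -26.3 ± 7.62 and -27.0 ± 11.05 points, with TRAV4-3 the lower in 12 of 12 libraries (exact test, adjusted p = 0.000977). These 12 libraries carry the same filed names, so the p-values measure the spread between libraries and not the uncertainty of the names. The tests here and of CDR3 length below also took the liver and gut libraries of a genotype and replicate number as separate. With these averaged the 5' share calls still passed, on fewer values, and the CD8 length call between the pair did not. With TRAJ61 to TRAJ41 as the 5' part, the CD8 difference of TRAV4-3 was 3.09 points and no longer passed (exact test, adjusted p = 0.374), and over the CDR3 that had the same V name in both tables the CD4 difference was -5.49 points (exact test, adjusted p = 0.319). Over the same CDR3 the CD8 difference of TRAV4-3 was 16.3 points and did not pass (exact test, adjusted p = 0.0674). The calls of TRAV4-4-DV10 against all others and of the pair against each other passed in both settings. In the 3 libraries before HCT, which were not tested, CD4 TRAV4-3 was at 49.6% ± 4.28 (n = 3) and all other segments at 48.1% ± 4.10.

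The 5' share was set beside the place of the genes. TRAV4-4-DV10 was number 8 in distance to the TRAJ array among the 47 V segments of at least 0.5% in CD4 T cells and number 7 in 5' TRAJ share. TRAV4-3 was number 12 and 14. Among the 41 CD8 segments TRAV4-4-DV10 was number 6 and 5 and TRAV4-3 number 10 and 9. Across all these segments Spearman's rho between distance and 5' share was -0.776 in CD4 and -0.757 in CD8 T cells, as a description over segments that share libraries. The copies TRAV4N-4, TRAV4N-3 and TRAV4D-3 lie farther away and had lower shares, although the CDR3 they encode are the same at the germline start. TRAV4N-4, at 852.4 kb, was the most used TRAV4 name in CD4 T cells with a usage of 2.02% ± 0.315 (SD, n = 15), and its 5' share on day 6 was 28.5% ± 5.13 (n = 12) in CD4 and 25.9% ± 6.84 in CD8 T cells. TRAV4N-3, at 943.6 kb (0.382% ± 0.132 usage in CD4, 0.343% ± 0.129 in CD8) was at 24.8% ± 8.83 and 11.9% ± 9.33, and TRAV4D-3, at 1254.5 kb (0.210% ± 0.0585 and 0.149% ± 0.0440) at 21.9% ± 8.46 and 13.6% ± 8.14. The TRAV4 names did not follow distance throughout. TRAV4D-2, annotated as a pseudogene at 1443.6 kb, was at 36.7% ± 12.7 and 27.4% ± 21.8, above the nearer TRAV4N-4, with a usage of 0.313% ± 0.0992 and 0.0641% ± 0.0388. TRAV4-2 and TRAV4D-4 were rare, at a mean usage of at most 0.0285% and 0.00255%. TRAV4-1, a pseudogene named here after its values were seen, was listed at 0.164% ± 0.0748 in CD4 and 0.119% ± 0.109 in CD8 T cells, with a 5' share of 96.2% and 96.4%. It is the farthest TRAV4 gene, at 1547.2 kb, and had the highest 5' share of those given here.

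**Figure D3:**
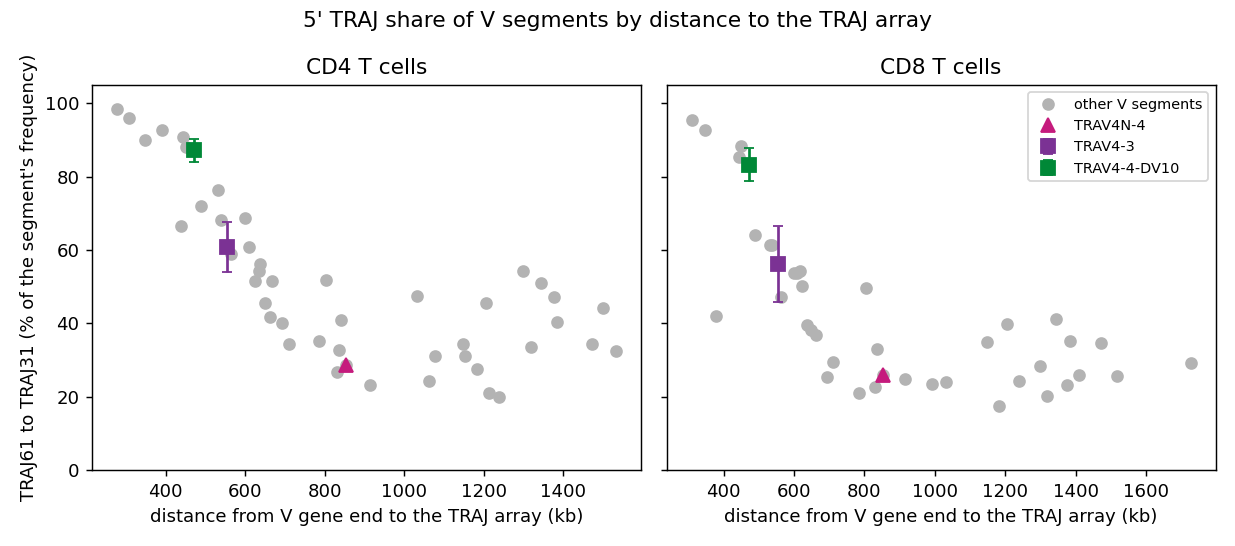
Share of TRAJ61 to TRAJ31 in the frequency of each V segment, mean of the 12 day 6 libraries, against the distance in kb from the end of the V gene to the TRAJ array, in CD4 (left) and CD8 T cells (right). Grey points are V segments of 0.5% mean usage or more, squares are TRAV4-4-DV10 and TRAV4-3 with 1 SD over libraries, and the triangle is TRAV4N-4. In CD4 T cells the 5' share is highest for TRAV4-4-DV10 among the 3 TRAV4 points (470.8 kb, 87.1%), followed by TRAV4-3 (555.6 kb, 60.8%) and then TRAV4N-4 (852.4 kb, 28.5%).

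CDR3 of TRAV4-3 were slightly shorter than those of other receptors. The frequency-weighted mean length on day 6 was 13.18 residues ± 0.0821 (SD, n = 12) in CD4 and 13.08 ± 0.335 in CD8 T cells, against 13.40 ± 0.0336 and 13.63 ± 0.0602 for all other V segments. The difference was -0.216 ± 0.106 and -0.556 ± 0.334 residues, with TRAV4-3 shorter in 11 of 12 CD4 and all 12 CD8 libraries (exact sign permutation test, adjusted p = 0.00130 and 0.000977). TRAV4-4-DV10 was shorter in CD8 T cells by 0.300 ± 0.162 residues (exact test, adjusted p = 0.000977), while its CD4 difference of -0.0146 ± 0.0627 did not pass (exact test, adjusted p = 0.431). That CD4 difference was larger and passed with each clonotype counted once, and also over the CDR3 with the same V name in both tables. TRAV4-3 was shorter than TRAV4-4-DV10 by 0.202 ± 0.143 residues in CD4 T cells (exact test, adjusted p = 0.00293). The CD8 difference of -0.257 ± 0.382 residues passed narrowly, with TRAV4-3 shorter in 9 of 12 libraries (exact test, adjusted p = 0.0394). That call was lost without any single library other than WT liver replicate 1 and the STAT3koPD-1ko liver libraries (9 of 12 cases, exact test, adjusted p = 0.0511 to 0.0788), and also when the liver and gut libraries of a genotype and replicate number were averaged (exact test, adjusted p = 0.136). By the V and J ends in the tables, CDR3 with no base between them made up 46.1% ± 10.2 (SD, n = 15) of CD4 TRAV4-3 and 34.6% ± 7.11 of CD4 TRAV4-4-DV10 frequency, against 33.6% ± 2.04 in all other segments, and 47.4% ± 11.6 and 45.5% ± 7.76 against 36.9% ± 2.34 in CD8 T cells. TRAV4-3 was above the other segments in 15 of 15 CD4 and 13 of 15 CD8 libraries, and TRAV4-4-DV10 in 7 and 13. When only bases that match the germline V end or the germline J segment were taken as encoded, the shares were lower, at 25.2% ± 6.83 and 14.5% ± 4.56 against 15.9% ± 1.42 in CD4 T cells and 24.02% ± 8.18 and 16.9% ± 3.91 against 17.9% ± 1.41 in CD8 T cells. On that measure TRAV4-3 was above the others in 15 CD4 and 12 CD8 libraries and TRAV4-4-DV10 in 5 and 6. These counts were not tested.

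No V-J pair passed the test between gut and liver. Of 1135 V-J pairs tested in CD4 T cells 0.0% were called, and 91 had an unadjusted p under 0.05 (limma). They included 19 pairs of TRAV4-3, with a median log2 difference of 0.002, and 23 of TRAV4-4-DV10, with a median of 0.14, beside a median of -0.01 over all pairs. Of 946 CD8 pairs 0.0% were called and 41 had an unadjusted p under 0.05. The 8 pairs of TRAV4-3 had a median of 0.22, the 13 of TRAV4-4-DV10 one of 0.21, and all pairs one of 0.06. The member pairs with an unadjusted p under 0.05 were 1, 0, 0 and 2 in this order. The pair with the lowest p was TRAJ45 with TRAV4-4-DV10 in CD8 T cells, at a log2 difference of 1.05 with an SE of 0.443 (limma, adjusted p = 0.884). Mean CDR3 length and 5' TRAJ share of the segments did not pass between the tissues either (8 tests, exact permutation within genotype, adjusted p of at least 0.697).

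The 10 largest clonotypes of a segment held more of it in liver than in gut in each of the 4 cases, but no difference passed after adjustment over the 12 tests of tissue. With these libraries a lone difference could not pass, since the smallest p of the test, 0.00926, becomes 0.111 when no other test reaches it. For TRAV4-3 in CD8 T cells their share was 63.6%, 64.6% and 47.2% in liver replicate 1 of WT, STAT3ko and STAT3koPD-1ko and 52.6%, 55.9% and 41.6% in liver replicate 2. It was 34.9%, 43.4% and 36.8% in gut replicate 1 and 48.8%, 51.2% and 40.2% in gut replicate 2. Within each genotype the lower liver value was above the higher gut value. The mean difference was -11.7 points, with the smallest p that this exact two-sided permutation test can give (p = 0.00926, adjusted p = 0.111). TRAV4-4-DV10 in CD4 T cells was at 32.1% ± 7.39 (SD, n = 6) in liver and 23.9% ± 6.71 in gut, a difference of -8.25 points (exact permutation test, p = 0.0185, adjusted p = 0.111). CD4 TRAV4-3 differed by -6.74 points (exact permutation test, adjusted p = 0.697) and CD8 TRAV4-4-DV10 by -3.35 (exact permutation test, adjusted p = 0.697). Without the gut libraries numbered 2, whose listed share was the lowest, these 2 differences were -15.2 and -8.86 points (exact permutation test, adjusted p = 0.148 and 0.333), and leaving out 1 library at a time moved the latter from -6.00 (without STAT3ko gut replicate 2) to -1.24 (without STAT3koPD-1ko gut replicate 1). Over CDR3 with the same V name in both tables the CD8 TRAV4-3 difference was -7.42 and the CD4 TRAV4-4-DV10 difference -13.4 points (exact permutation test, adjusted p = 0.185 for both). The number of TRAV4-3 clonotypes listed was 83 to 118 in CD8 liver and 80 to 164 in CD8 gut libraries, and its part in the result was not tested. Before HCT the share was 65.2% to 85.9% for CD8 TRAV4-3.

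**Figure D4:**
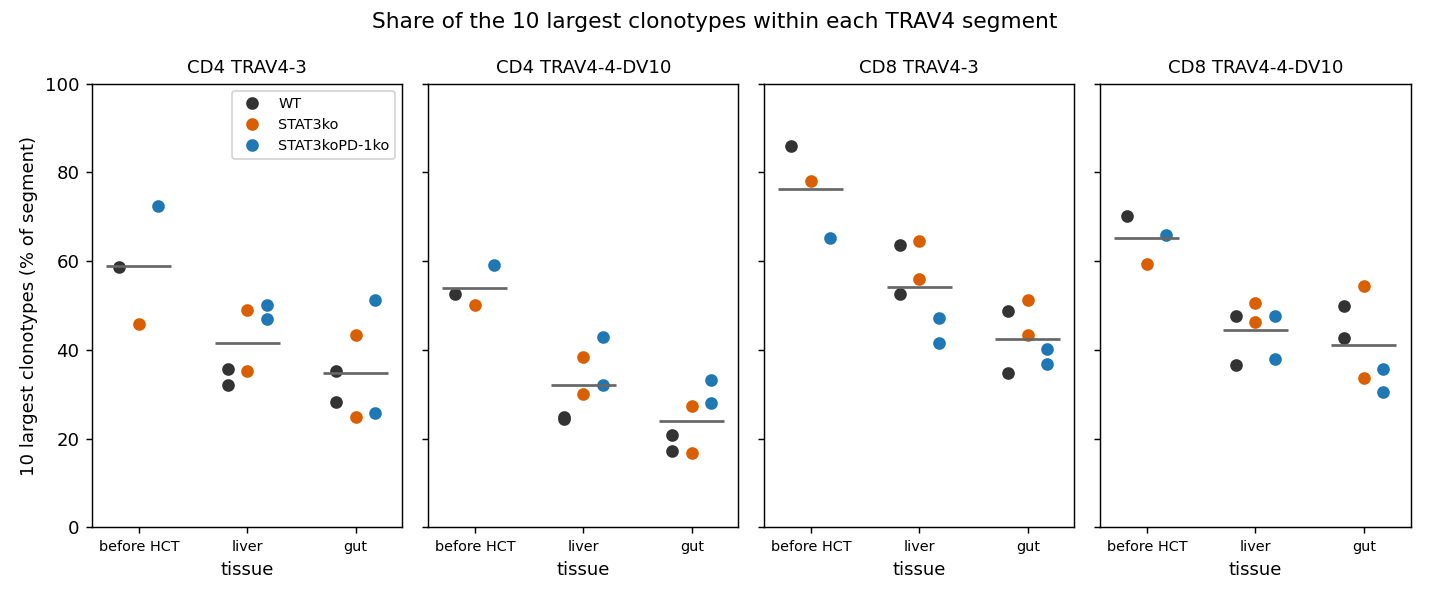
Share of the 10 largest clonotypes in the frequency of TRAV4-3 and TRAV4-4-DV10 in CD4 and CD8 T cells, by tissue. Points are libraries coloured by donor genotype and lines are means. CD8 TRAV4-3 lies at 65.2% to 85.9% before HCT, at 41.6% to 64.6% in liver and at 34.9% to 51.2% in gut.

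The clonotypes of highest mean frequency over the 15 libraries, and of the highest value in a single day 6 library, are given next. The CDR3 DNA of 10 of them is shown, picked after their values were seen as examples with and without inserted bases, with the bases that match neither the germline end of V nor the germline J segment (GENCODE vM21) in capitals.
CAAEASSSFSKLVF (TRAJ50, CD4 TRAV4-4-DV10): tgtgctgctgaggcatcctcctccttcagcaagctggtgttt
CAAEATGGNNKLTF (TRAJ56, CD4 TRAV4-4-DV10): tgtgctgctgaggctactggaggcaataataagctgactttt
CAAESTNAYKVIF (TRAJ30, CD4 TRAV4-4-DV10): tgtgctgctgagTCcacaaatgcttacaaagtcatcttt
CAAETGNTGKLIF (TRAJ37, CD4 TRAV4-3): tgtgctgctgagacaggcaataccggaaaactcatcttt
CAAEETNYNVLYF (TRAJ21, CD4 TRAV4-3): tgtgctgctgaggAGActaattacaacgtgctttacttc
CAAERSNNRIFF (TRAJ31, CD8 TRAV4-3): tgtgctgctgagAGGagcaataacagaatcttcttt
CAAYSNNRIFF (TRAJ31, CD8 TRAV4-3): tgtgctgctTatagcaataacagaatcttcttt
14 residues (TRAJ42, CD8 TRAV4-3): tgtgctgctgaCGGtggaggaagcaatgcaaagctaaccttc
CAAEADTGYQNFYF (TRAJ49, CD8 TRAV4-4-DV10): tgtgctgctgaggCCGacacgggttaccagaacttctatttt
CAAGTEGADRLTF (TRAJ45, CD8 TRAV4-4-DV10): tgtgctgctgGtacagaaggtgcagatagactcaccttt
Of these 10, 3 were listed in all 15 libraries (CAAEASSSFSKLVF, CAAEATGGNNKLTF and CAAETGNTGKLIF) and have no such base, whereas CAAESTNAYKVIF, which was listed in 11, has 2. Other clonotypes named below were listed in all 15 libraries and do hold such bases. The CD4 TRAV4-3 CDR3 with TRAJ30 and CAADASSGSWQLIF hold 2 each. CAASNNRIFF, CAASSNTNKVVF and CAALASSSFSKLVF hold 1 each. The 10 examples therefore show no link between inserted bases and the number of libraries. The V and J ends that the tables give left no base between them in 17 of the 29 clonotypes named here, but 7 of these 17 hold bases that match neither germline segment.

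In CD4 T cells the TRAV4-4-DV10 clonotype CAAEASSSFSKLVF was listed in all 15 libraries and had the same name in both tables. It was at 0.0202%, 0.0563% and 0.0251% before HCT in WT, STAT3ko and STAT3koPD-1ko, and between 0.00655% and 0.147% on day 6. The highest value, in STAT3ko liver replicate 1, was 8.64% of the segment there. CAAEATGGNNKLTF, likewise listed in all 15 and named alike in both tables, stayed between 0.0101% and 0.0576% throughout. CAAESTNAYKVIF was at 0.103% before HCT and 0.143% in liver replicate 1 of STAT3koPD-1ko, and at most 0.00337% in every other library. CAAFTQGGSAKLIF (TRAJ57) was listed only in those same 2 libraries, at 0.0246% and 0.115%. The remaining named clonotypes, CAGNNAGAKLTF (TRAJ39), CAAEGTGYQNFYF (TRAJ49) and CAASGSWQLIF (TRAJ22), were highest in a single library before HCT, at 0.313%, 0.313% and 0.246%, and their highest day 6 values were 0.0607%, 0.0646% and 0.0183%. In the CD8 table these 3 were filed under TRAV8D-1, TRAV19 and TRAV4N-3.

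The leading CD4 TRAV4-3 clonotypes were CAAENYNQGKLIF (TRAJ23), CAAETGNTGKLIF (TRAJ37), and 3 CDR3 with TRAJ30, TRAJ32 and TRAJ39, all listed in 15 libraries. The CDR3 with TRAJ30 holds 2 bases that match neither germline segment, and the other 4 hold none. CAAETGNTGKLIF reached 0.102% in STAT3koPD-1ko liver replicate 2, 8.65% of the segment there, and was as low as 0.000352% in STAT3ko gut replicate 2. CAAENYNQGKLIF was at 0.353% in the STAT3koPD-1ko library before HCT and at most 0.0794% on day 6. In the CD8 table none of these 5 kept the name TRAV4-3: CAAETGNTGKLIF and the CDR3 with TRAJ30 were filed under TRAV4-4-DV10, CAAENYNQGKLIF under TRAV7D-2, that with TRAJ32 under TRAV10 and that with TRAJ39 under TRAV3-3. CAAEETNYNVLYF was listed in 5 libraries. In STAT3ko it was at 0.0538% before HCT, 0.0816% and 0.00962% in the liver replicates and 0.00657% in gut replicate 1, and it was at 0.00266% in WT gut replicate 2. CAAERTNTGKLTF (TRAJ27) was highest in WT liver replicate 1, at 0.0865%.

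The 3 CD8 TRAV4-3 clonotypes with TRAJ31 named here had their highest values in STAT3ko libraries. Nothing is read from this, since the segment was chosen with its STAT3ko usage known and the clonotypes by a high mean or single value. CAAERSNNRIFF was listed in 4 libraries, all STAT3ko, at 0.177% before HCT, 0.0658% in liver replicate 1, and 0.00538% and 0.0110% in gut. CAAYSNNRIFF was at 0.135% in STAT3ko liver replicate 1, 18.4% of the segment there, 0.0221% before HCT in STAT3ko, and at most 0.00896% elsewhere. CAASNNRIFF, listed in all 15, was highest in STAT3ko gut replicate 1 (0.0675%) and STAT3ko liver replicate 2 (0.0599%). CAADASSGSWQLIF (TRAJ22) was at 0.207% in STAT3ko before HCT and at most 0.0255% on day 6. WT had its own large clonotype in the TRAJ42 clonotype of 14 residues whose DNA is given, at 0.0494% before HCT, 0.127% in liver replicate 1 and 0.00862% in gut replicate 1, and listed nowhere else. A CDR3 of 15 residues with TRAJ50 was at 0.197% in WT before HCT and at most 0.0118% on day 6. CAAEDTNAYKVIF and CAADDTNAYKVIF, both with TRAJ30, were more even, with day 6 values of 0.000822% to 0.0359% and 0.00581% to 0.0391%. Of these 8 only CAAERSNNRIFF and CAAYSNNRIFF were also named TRAV4-3 in the CD4 table. There the TRAJ42 clonotype was under TRAV4-4-DV10, those with TRAJ30 under TRAV4N-4, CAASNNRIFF under TRAV10D, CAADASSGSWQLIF under TRAV14D-2 and that with TRAJ50 under TRAV19.

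CD8 TRAV4-4-DV10 was led by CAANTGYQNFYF (TRAJ49), which was listed in all 15 libraries, ranged from 0.00411% to 0.134%, and made up 16.2% of the segment in STAT3ko liver replicate 2. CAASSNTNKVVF (TRAJ34) reached 0.0832% in STAT3ko gut replicate 2 and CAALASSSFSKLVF (TRAJ50) 0.0466% in STAT3ko before HCT. A CDR3 of 13 residues with TRAJ27 was at 0.176% in STAT3koPD-1ko before HCT and at most 0.0354% on day 6, and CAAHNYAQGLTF (TRAJ26) reached 0.0676% in STAT3koPD-1ko liver replicate 1. In WT gut, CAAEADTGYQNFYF was at 0.142% in replicate 1 and 0.0120% in replicate 2, and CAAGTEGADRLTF at 0.00366% and 0.0948%, each about 16.4% to 17.8% of the segment in its highest library. These last 2 had the same name in the CD4 table. The 5 leading by mean were filed there outside TRAV4, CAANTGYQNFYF under TRAV10, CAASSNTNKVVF under TRAV14D-1, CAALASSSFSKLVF under TRAV7-5, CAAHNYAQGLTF under TRAV14D-2 and the CDR3 with TRAJ27 under TRAV7D-2.

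Clonotypes rare before and more frequent after transplantation were counted with a pair of frequency limits that follow the study. Applying them to means was a choice made here: a mean under 1e-05 over the 3 libraries before HCT and above 0.0001 (0.01% of a library) over the 2 libraries of a genotype and tissue. Over the 6 sets of genotype and tissue, 5 to 8 such CD4 clonotypes were TRAV4-3 and 5 to 14 were TRAV4-4-DV10. As a share of all such clonotypes this was 1.23% ± 0.203 (SD, n = 6) and 1.77% ± 0.473, beside 1.02% and 1.90% of all listed clonotypes. The CD8 counts were 1 to 8 and 3 to 8, a share of 0.713% ± 0.393 and 0.961% ± 0.237 beside 0.724% and 0.894%. CD8 TRAV4-3 had 7 of 748 and 8 of 608 in STAT3ko liver and gut (0.936% and 1.32%), 3 of 655 and 3 of 555 in WT (0.458% and 0.541%), and 4 of 490 and 1 of 477 in STAT3koPD-1ko (0.816% and 0.210%). These counts are small and were not tested, and in liver the STAT3ko and STAT3koPD-1ko shares were close.

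Among the other V segments of at least 0.5%, the likeness of usage is given as a description over the 15 libraries, which share the sets of clonotypes. The highest Pearson's r of log2 usage with CD4 TRAV4-3 were 0.579 for TRAV14D-3-DV8, 0.509 for TRAV8D-1 and 0.465 for TRAV21/DV12, and with CD4 TRAV4-4-DV10 0.522 for TRAV9-1, 0.512 for TRAV13D-2 and 0.491 for TRAV6-7-DV9. With CD8 TRAV4-3 they were 0.465 for TRAV12D-2, 0.386 for TRAV17 and 0.352 for TRAV4N-4, and with CD8 TRAV4-4-DV10 0.413 for TRAV14D-2, 0.390 for TRAV7D-3 and 0.390 for TRAV10. The lowest r were -0.813 for TRAV5D-4 with CD4 TRAV4-3, -0.707 for TRAV7D-5 with CD4 TRAV4-4-DV10, -0.427 for TRAV7-5 with CD8 TRAV4-3 and -0.386 for TRAV12-2 with CD8 TRAV4-4-DV10. Between the pair itself r was 0.121 in CD4 and 0.132 in CD8 T cells.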

How the data were processed

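RNA of sorted donor CD4 and CD8 T cells had been amplified by the authors with a SMARTer mouse TCR a/b kit, sequenced as paired reads, and assembled into clonotypes with MiXCR and joined per chain and cell type with VDJtools. The authors deposited clonotype frequencies, in the unit fraction, relative to all reads of the library. Other columns of the deposited tables give the number of joined libraries with a clonotype and the ends of V and J in the CDR3. Labels name the build mm10. Segments and lists were chosen with earlier results of these data known. Groups came from the labels. The study's methods name 2 batches, each combined from 3 mice, and the day 6 titles number the libraries 1 and 2; that these numbers are the batches is not stated, and pools of recipients are the replicates.

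Usage (percent of listed frequency) of V segments of at least 0.5% was put on a log2(percent + 0.1) scale and fitted by limma (version 3.58.1, R version 4.3.3), and V-J pairs on log2(percent + 0.01) for at least 0.02%, over the whole table, with genotype and tissue (or time) in the fit and Benjamini-Hochberg adjustment. Fold changes on this scale understate those of rare segments. Length, 5' TRAJ share and the share of the 10 largest clonotypes were compared by exact two-sided permutation, of tissue within genotype (12 tests) or of the sign of the difference within a library (12 tests). The limma comparison of gut with liver and both permutation tests were tried on simulated, independent values, the sign test with fewer than the 12 used here. The limma comparisons of day 6 with before HCT and of genotypes were not. Named clonotypes were the 5 of highest mean and the 3 of highest day 6 value for each segment and table; the 3 TRAJ of highest share, called V-J pairs, the 3 segments of highest r and the other TRAV4 names were also fixed by rule. Replicate numbers were taken to pair gut with liver in CD4, where the deviations of same-numbered libraries from their group means correlated at 0.174 to 0.240 in all 3 genotypes, and not in CD8 (0.0868 to 0.221, with 0.1 required in each). The values printed are from fits without the block, as the design had set, and the block was run as an alternative that changed no CD4 call. Depth is unknown, so no counting interval is given. TCR beta tables were not used. Alternatives concerned pseudocounts, filters, weighting, the denominator, the 5' limit, the replicate block and left-out libraries, and 5 more (copies merged, same V name in both tables, no gut replicate 2, largest clonotype left out, inserted bases by match to the last 40 bases of the V transcript and to the J transcript) were chosen after seeing the data. Sequences and positions are from GENCODE vM21 (GRCm38), which is mm10.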

Additional observations from a re-analysis of the deposited data

Results flagged for a closer look

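Of 32 groups of 6 libraries checked (liver and gut, for usage, CDR3 length, 5' TRAJ share and share of the 10 largest clonotypes of each segment and table), 1 held a value that stood apart by Dixon's 95% criterion, and chance gives about 1 in 20. The mean CDR3 length of CD4 TRAV4-3 in STAT3koPD-1ko gut replicate 2 was 13.34 residues, while the other 5 gut libraries were between 13.13 and 13.20.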

How the results depend on the processing

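Over 47 results and 953 recomputed values, 885 kept their direction and their side of the threshold, and 20 results did so throughout. No usage or gut against liver result passed the threshold, and for those a change of sign is a change within the error. The cause of the changes was not tested. The share of CDR3 with no inserted base was lower in all 4 cases when set by match to the germline, and CD8 TRAV4-4-DV10 was then above the other segments in 6 of 15 libraries in place of 13. With each clonotype counted once, log2 usage differences between gut and liver became 0.0929 for CD4 TRAV4-3, and those between day 6 and before HCT 0.0401 and 0.0354 for CD4 TRAV4-3 and TRAV4-4-DV10 and 0.0655 for CD8 TRAV4-3. In CD4 TRAV4-3 STAT3ko minus WT became 0.0324 and STAT3koPD-1ko minus STAT3ko -0.0739, the latter -0.0258 for CD4 TRAV4-4-DV10. The untested CD8 genotype differences became 0.0235 and -0.0547 for TRAV4-3 and, for STAT3koPD-1ko minus STAT3ko, 0.0783 for TRAV4-4-DV10. The gut minus liver 5' share became -0.245 points for CD4 TRAV4-3 and -0.932 for CD8 TRAV4-4-DV10, and CD4 TRAV4-4-DV10 CDR3 became shorter than others by a passing -0.0597 residues. With a pseudocount of 1 the CD8 TRAV4-3 differences were -0.0020 (gut minus liver), 0.175 and -0.219 (genotypes). As percent of all reads, gut minus liver was -0.053 for CD4 TRAV4-4-DV10. With D and N copies merged, day 6 minus before HCT was 0.0106 for CD4 TRAV4-4-DV10 and 0.0108 for CD8 TRAV4-3, and STAT3koPD-1ko minus STAT3ko -0.0215 for CD4 TRAV4-4-DV10.

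Over CDR3 with the same V name in both tables, CD4 TRAV4-4-DV10 usage differed by -0.121 (gut minus liver) and -0.0321 (STAT3koPD-1ko minus STAT3ko), CD4 TRAV4-3 by -0.262 (STAT3koPD-1ko minus STAT3ko), and CD8 TRAV4-4-DV10 by 0.659 (day 6 minus before HCT), -0.567 and 0.0768 (genotypes). Gut minus liver 5' share was -2.19 and 1.81 points for CD4 and CD8 TRAV4-3, and CD8 TRAV4-3 length 0.126 residues. Against all other segments the 5' share of TRAV4-3 was -5.49 points in CD4 and 16.3 in CD8, neither passing, CD4 TRAV4-4-DV10 length -0.147 residues, passing, and CD8 TRAV4-3 length against TRAV4-4-DV10 -0.596, not passing. With TRAJ61 to TRAJ41 as the 5' part, gut minus liver was -2.97 points for CD4 TRAV4-3, 0.629 for CD4 TRAV4-4-DV10 and 2.08 for CD8 TRAV4-3, and CD8 TRAV4-3 against all others 3.09, not passing. Over clonotypes of at least 3 libraries, CD4 TRAV4-4-DV10 gut minus liver was 0.0160 residues and 0.392 points. Without the gut libraries numbered 2 it was 0.0594 residues and 0.422 points, CD8 TRAV4-4-DV10 length 0.0411, CD4 TRAV4-4-DV10 length against all others 0.0030 and CD8 TRAV4-3 length against TRAV4-4-DV10 -0.272, not passing. Leaving out 1 library at a time gave -1.65 to 0.544 points for CD4 TRAV4-4-DV10 5' share and -0.0473 to 0.0006 residues for its length (gut minus liver), -0.203 to 0.0082 and -0.123 to 0.0021 residues for CD8 TRAV4-3 and TRAV4-4-DV10, -0.0702 to 0.0421 for CD8 TRAV4-3 usage between tissues, -0.0702 to 0.0436 for CD4 TRAV4-3 usage in STAT3koPD-1ko against WT, -0.162 to 0.0475 and -0.288 to 0.0436 for CD8 TRAV4-3 and TRAV4-4-DV10 usage on day 6 against before HCT, and -0.301 to -0.186 residues for CD8 TRAV4-3 against TRAV4-4-DV10.

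With the replicate block the CD8 length of TRAV4-3 against TRAV4-4-DV10 was -0.257 residues and no longer passed (exact test over 6 means, adjusted p = 0.136), and the block changed no other call of the 2 segments. Same-numbered CD8 libraries correlated at 0.0868 to 0.221 between liver and gut of a genotype, and at 0.104 to 0.609 between genotypes of a tissue (6 pairs, all over 0.1). Between genotypes of a tissue the CD4 values were -0.173 to 0.568. For day 6 against before HCT, where the earlier columns carry the number 1, the differences with the block were -0.18 and -0.17 for CD4 TRAV4-3 and TRAV4-4-DV10 and -0.0051 and -0.10 for CD8 (limma, adjusted p of 0.606 for both CD4 and 0.992 and 0.899 for CD8).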
